A study of Caenorhabditis elegans with 6 samples.

Results

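The 39 genes described here are Caenorhabditis elegans genes known only by a sequence name, expressed in every library of the pals-25(icb98) mutant and almost silent in WT animals. They were chosen by their measured levels in these same libraries, out of 22010 genes. A gene was taken if it had no gene symbol, reached at least 5 CPM (the estimated counts of a gene per 1000000 counts of its library) in each of the 3 pals-25(icb98) libraries, and averaged below 1 CPM over the 3 WT libraries. Unnamed genes of 7 clones (ZC196, B0507, T28A11, F35F10, C04E12, C17B7 and T20D4) were left out. Of the 10097 unnamed genes outside those clones, 0.386% met both limits, and of all measured genes 0.432% did. These 95 genes were the 39 described here, 51 genes with a symbol and 5 genes of the left-out clones. Because these limits chose the genes, their levels in the 2 genotypes are given as a description, with no test.

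Whole animals at the L4 larval stage were sequenced, with 3 libraries of pals-25(icb98) and 3 of WT, all grown on E. coli OP50 at 20°C after embryos had been isolated with bleach. The icb98 allele came out of a chemical mutagenesis screen, shortens PALS-25 by a stop codon close to its C-terminus and acts as a gain of function. Both genotypes carry icbIs4, an integrated transgene that expresses GFP from the chil-27 promoter and mCherry from that of col-12, so the WT libraries are transgenic as well. The mutant is represented by 1 strain. In whole-animal RNA, a gene switched on in a few cells cannot be told apart from one raised weakly in many.

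PALS-22 and PALS-25 are paralogous proteins that act as opposing parts of an immune switch in C. elegans: PALS-22 holds defence genes off and PALS-25 turns them on. The intracellular pathogen response (IPR) is the program raised by viruses and microsporidia that enter intestinal cells, and the oomycete recognition response (ORR) is raised by oomycetes that attack through the epidermis. Both programs contain many genes that have never been given a name. A sequence name such as C53A5.9 only says on which genomic clone the gene was predicted and in which order.

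Library totals ran between 40709626 and 47297002 estimated counts, so that a single count was worth between 0.0211 and 0.0246 CPM. Any 2 mutant libraries differed by more than 2-fold at 230 to 280 genes, and WT replicates 1 and 3 at 280 genes, but WT replicate 2 stood apart from them at 2960 and 2658 genes. Transcript of the mutated gene, pals-25, stood at 4.01, 4.29 and 3.76 CPM in pals-25(icb98), against 1.88, 2.49 and 1.77 CPM in WT, which is no check of the stop codon. Of 47 markers of tissues and of molting, 46 were measured and none was at 0 in all libraries. The 10 molting genes summed to 1435, 1905 and 1232 CPM in pals-25(icb98), against 3381, 5920 and 4079 CPM in WT, and 6 of them were called lower in the edgeR test across all genes. Of 6 intestine markers 2 were called higher, and the 6 summed to 7097, 6312 and 6188 CPM in pals-25(icb98), against 4632, 5254 and 4948 CPM in WT. Of 5 epidermis markers 1 was called higher and 2 lower, and these summed to 3664, 3761 and 3340 CPM in pals-25(icb98), against 4986, 3678 and 4812 CPM in WT. Markers of oocytes were at 289, 253 and 294 CPM in pals-25(icb98), against 177, 81.3 and 184 CPM in WT, and those of sperm at 270.0, 252 and 282 CPM in pals-25(icb98), against 206, 66.1 and 218 CPM in WT, with none called. Among the other lists 1 marker of body wall muscle was called higher and 1 of the pharynx lower, and none of neurons or germline was called. The part of these shifts in the levels given below was not tested.

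Together the 39 genes summed to 844, 856 and 804 CPM in pals-25(icb98), against 18.6, 17.4 and 19.1 CPM in WT. The sums were therefore close within each genotype, WT replicate 2 included. They made up 0.0834% of all counts in the mutant and 0.00184% in WT.

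**Figure D1:**
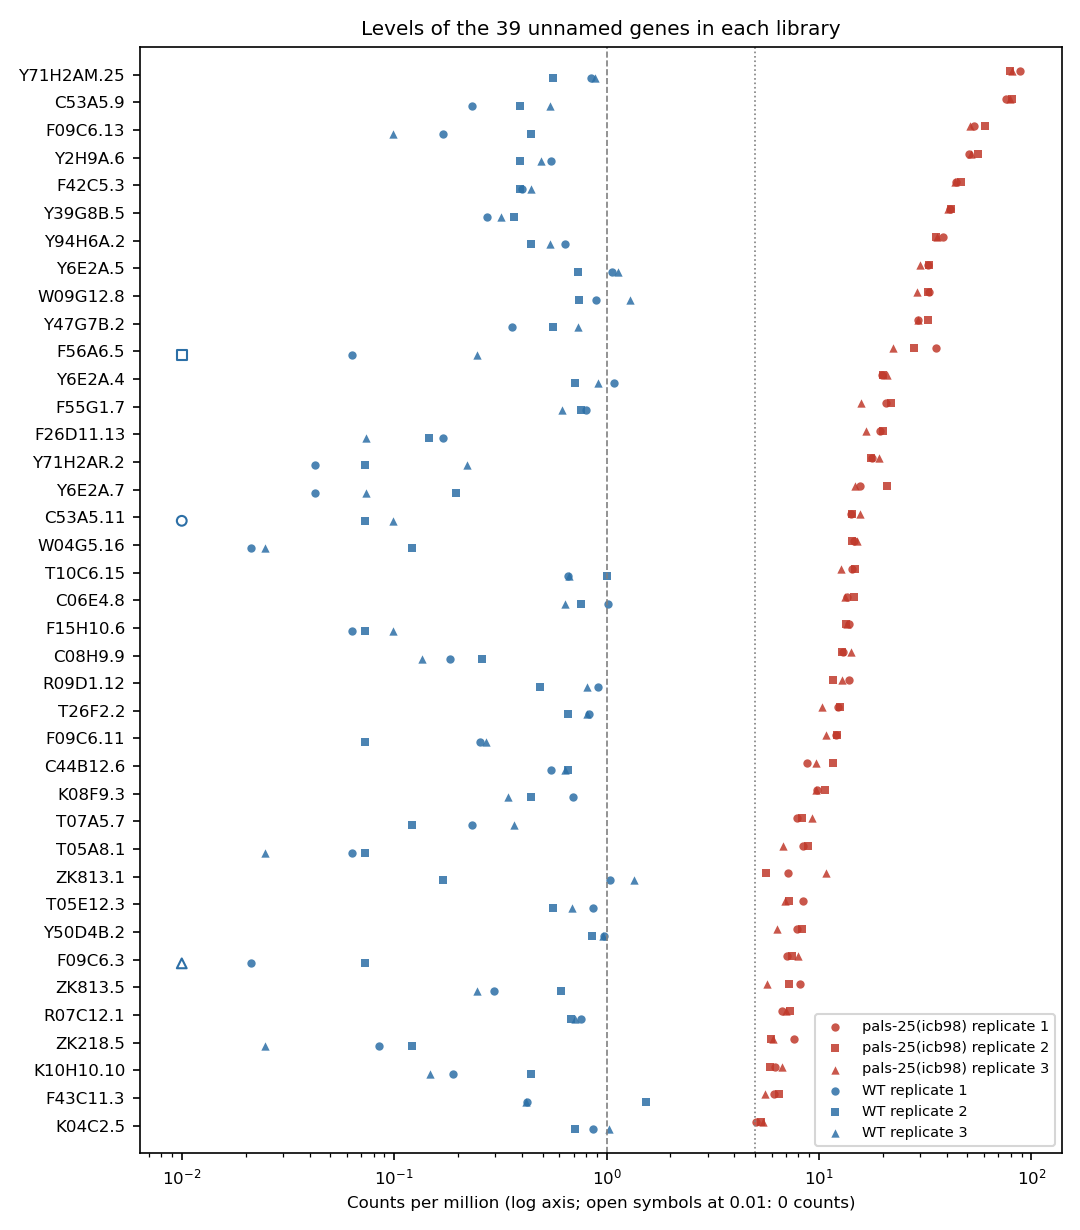
Level of each of the 39 genes in each library, in CPM on a log axis, with pals-25(icb98) in red and WT in blue; the symbol shape gives the replicate, the dashed and dotted lines the limits of 1 and 5 CPM, and open symbols a library with 0 counts. The genes are ordered by mean mutant CPM, and the highest WT library of any gene is at 1.54 CPM.

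Levels of different genes were compared as TPM, in which counts are first divided by transcript length and then scaled to 1000000 per library. Mean TPM in pals-25(icb98) had a median of 16.5 over the 39 genes and ran between 4.53 (ZK813.5) and 580 (F09C6.13), while mean TPM in WT had a median of 0.546 and a highest value of 2.56. Only 3 genes passed 100 TPM in the mutant, 27 were between 10 and 100 TPM and 9 were below 10 TPM. Those 3 were F09C6.13, W04G5.16 and F09C6.11, at 580 ± 50, 329 ± 12 and 133 ± 8.0 TPM (SD, n = 3), and they held 58.1% of the summed TPM of the 39 genes. All 3 are very short. Their longest listed transcripts have 234, 171 and 234 bases, against a median of 1014 bases over the 39 genes. Their TPM thus rests strongly on the estimated effective length. These listed transcripts hold little beyond the coding sequences of 231, 168 and 231 bases. In some other genes they extend further, as in T05A8.1, with a transcript of 1425 bases for 600 coding bases. The part of this difference in the order by TPM was not tested.

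The spread among the 3 mutant libraries was small, with a median coefficient of variation of 6.5% over the 39 genes, beside 5.53% over the 8518 measured genes in the same CPM range. It passed 10% in 11 of the 39 genes and was widest in ZK813.1 (33.8%) and F56A6.5 (22.7%). The ratio of pooled CPM in pals-25(icb98) over WT had a median of 56.2 and ran between 6.08 (K04C2.5) and 284 (F56A6.5). It passed 100 in 15 genes, was between 50 and 100 in 5, between 10 and 50 in 14 and below 10 in 5. Each ratio carries an exact 95% interval that covers counting error only, and these intervals were wide at the top because WT counts were few: pooled over 3 libraries, a gene had 697 to 10966 counts in the mutant, against 4 to 126 in WT.

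**Figure D2:**
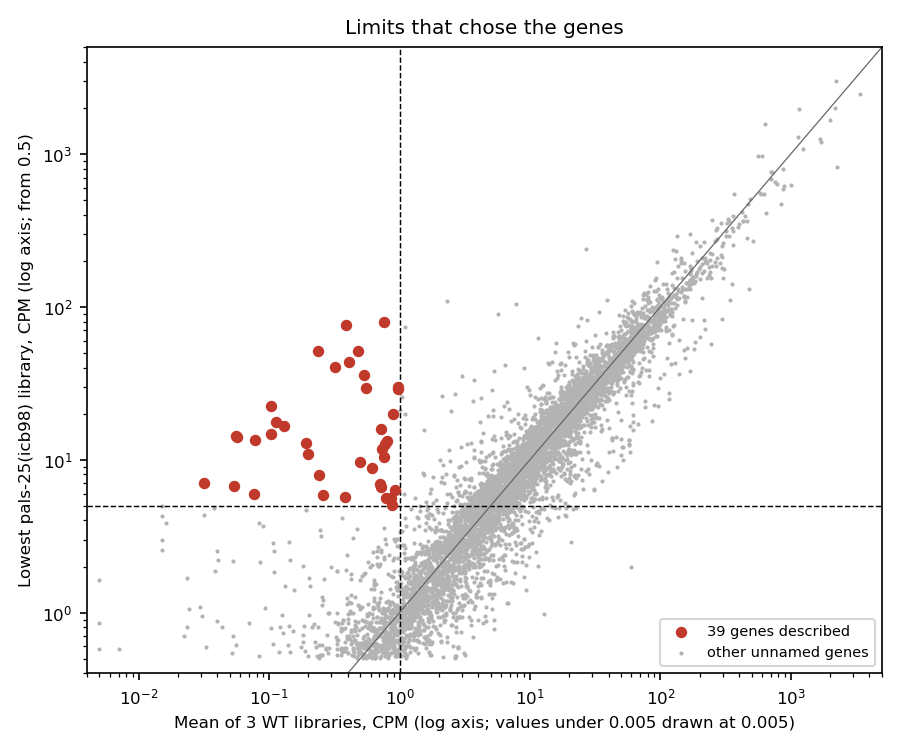
Lowest of the 3 pals-25(icb98) libraries (vertical) against the mean of 3 WT libraries (horizontal), both in CPM on log axes, for unnamed genes outside the left-out clones; red points are the 39 genes, grey points the others, dashed lines the limits and the solid line equality. Several grey points lie just beyond the WT limit, among them F09C6.12 at a WT mean of 1.09 CPM.

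The limits cut through a continuous range. Nearest inside the WT limit were Y6E2A.5, W09G12.8, Y50D4B.2 and Y6E2A.4, with WT means of 0.973, 0.972, 0.928 and 0.898 CPM. Just outside it were C49C8.2, W08E12.2, C54D10.10 and F09C6.12, with lowest mutant libraries of 21.0, 25.5, 5.94 and 74.0 CPM and WT means of 1.0, 1.05, 1.08 and 1.09 CPM. Nearest inside the mutant limit were K04C2.5, F43C11.3, ZK813.1 and ZK813.5, whose lowest mutant libraries were at 5.04, 5.58, 5.65 and 5.67 CPM. W04G5.7, R09D1.4, W04G5.8 and ZK938.8 missed it with 4.97, 4.79, 4.70 and 4.35 CPM in their lowest mutant library, although their WT means were only 0.0152, 0.0375, 0.193 and 0.0315 CPM.

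Most of the 39 genes have no assigned function: in the gene categories used by the study, 26 were unassigned, 8 of these being noted as regulated by several stresses. Apart from 3 pseudogenes, the remaining genes fell into small categories. The largest of these, with 2 genes each, were cysteine cathepsins, kinases and transmembrane proteins.

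The cathepsin genes Y71H2AM.25 and Y71H2AR.2 encode predicted cysteine proteases, a class that usually works in the lysosome. Y71H2AM.25 (chromosome III, 2802465 to 2803681 in WBcel235, plus strand) had the highest CPM of the 39, at 88.5, 79.4 and 81.1 CPM in pals-25(icb98), against 0.846, 0.561 and 0.884 CPM in WT. Its ratio was 108 (95% counting interval 88.8 to 133). Y71H2AR.2 (chromosome III, 2839120 to 2840927, minus strand) was at 17.8, 17.6 and 19.3 CPM in pals-25(icb98), against 0.0423, 0.0731 and 0.221 CPM in WT, a ratio of 168 (100.03 to 308). The 2 genes start 36655 bases apart on opposite strands and share the same structure, with 897 coding bases in 4 exons each. Per length, Y71H2AM.25 was the higher of the pair in the mutant, at 96.1 ± 5.3 TPM against 18.2 ± 0.90 TPM for Y71H2AR.2 (SD, n = 3).

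The 2 genes placed among the kinases were Y39G8B.5 and R09D1.12. Y39G8B.5 (chromosome II, 13987499 to 13991841, minus strand), whose human counterpart is given as a serine/threonine kinase of the SH3-binding type, was at 41.2, 42.1 and 40.4 CPM in pals-25(icb98), against 0.275, 0.366 and 0.319 CPM in WT. It had the longest coding sequence of the 39, 2178 bases. R09D1.12 (chromosome II, 9449908 to 9452272, minus strand), related to receptor tyrosine kinases of the fibroblast growth factor receptor group, was at 13.9, 11.7 and 12.8 CPM in pals-25(icb98), against 0.909, 0.488 and 0.811 CPM in WT. Their ratios were 130 (95.5 to 181) and 17.2 (14 to 21.3).

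Some genes without an assigned category have a recognisable domain. C53A5.9 and C53A5.11 encode proteins with kelch repeats, which fold into a propeller and bind other proteins. C53A5.9 (chromosome V, 14556966 to 14558857, minus strand) was at 76.4, 81.2 and 79.3 CPM in pals-25(icb98), against 0.233, 0.390 and 0.540 CPM in WT, a ratio of 208 (157 to 281). C53A5.11 (chromosome V, 14562889 to 14564639, plus strand) was at 14.2, 14.3 and 15.6 CPM in pals-25(icb98), against 0, 0.0731 and 0.0983 CPM in WT. The 0 in WT replicate 1 allows up to 0.0634 CPM at that library's depth. Per length, C53A5.9 was the higher of the pair in the mutant, at 53.1 ± 1.8 TPM against 11.3 ± 0.60 TPM for C53A5.11 (SD, n = 3). F56A6.5, a RING zinc finger gene (chromosome I, 582211 to 583729, minus strand), was at 35.4, 28.2 and 22.4 CPM in pals-25(icb98), against 0.0634, 0 and 0.246 CPM in WT. Its mutant libraries were thus less even than those of the kelch genes, and its WT value rests on 13 counts in all. T10C6.15, which has an F-box-like domain, averaged 14 ± 1.1 CPM in pals-25(icb98) and 0.773 ± 0.20 CPM in WT (SD, n = 3).

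Membrane proteins made up another set. Y47G7B.2 (chromosome II, 2705920 to 2708014, minus strand) and K08F9.3 (chromosome V, 15140547 to 15144079, plus strand) are placed among transmembrane proteins of unassigned function. Y47G7B.2 was at 29.3, 32.8 and 29.4 CPM in pals-25(icb98), against 0.359, 0.561 and 0.737 CPM in WT. K08F9.3 was at 9.79, 10.6 and 9.63 CPM in pals-25(icb98), against 0.698, 0.439 and 0.344 CPM in WT. Y2H9A.6 (chromosome V, 13443835 to 13445055, plus strand), noted only for a membrane-spanning domain, was higher than both, at 51.0, 55.9 and 52.1 CPM in pals-25(icb98), against 0.550, 0.390 and 0.491 CPM in WT. Per length the order was the same: 62.2 ± 3.2 TPM for Y2H9A.6, 20.0 ± 1.3 TPM for Y47G7B.2 and 11.1 ± 0.67 TPM for K08F9.3 in the mutant (SD, n = 3). ZK813.5, a predicted seven-transmembrane receptor, had the lowest TPM of all 39 genes in the mutant, 4.53 ± 0.80 TPM against 0.25 ± 0.13 TPM in WT.

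Among genes without an assigned role, F42C5.3 (chromosome IV, 7286097 to 7287574, minus strand) was at 44.1, 46.9 and 43.7 CPM in pals-25(icb98), against 0.402, 0.390 and 0.442 CPM in WT, with libraries close together in both genotypes. Y94H6A.2 (chromosome IV, 2730292 to 2732422, plus strand), which has a domain of unknown function, was at 38.4, 35.5 and 35.9 CPM in pals-25(icb98), against 0.634, 0.439 and 0.540 CPM in WT. W09G12.8 (chromosome IV, 1226182 to 1227668, plus strand) has a PAW domain, as found in peptide N-glycanase, an enzyme that strips sugars from misfolded proteins. It was at 32.9, 32.7 and 29.0 CPM in pals-25(icb98), against 0.893, 0.739 and 1.28 CPM in WT, so that 1 WT library was above the limit that applied to the WT mean. At least 1 WT library at or above 1 CPM was found in 7 of the 39 genes, and in 2 of these, Y6E2A.5 and ZK813.1, there were 2 such libraries.

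Other genes with a described relative or domain were T07A5.7, C44B12.6, T05E12.3 and Y50D4B.2. T07A5.7, related to fukutin, averaged 8.48 ± 0.68 CPM in pals-25(icb98) and 0.241 ± 0.12 CPM in WT. C44B12.6, annotated with predicted cytokine activity, averaged 10.1 ± 1.4 CPM in pals-25(icb98) and 0.616 ± 0.058 CPM in WT. Both stayed below the median ratio of the 39 genes, at 35.3 (24.7 to 52.2) and 16.4 (13.1 to 20.9). T05E12.3, of a family related to potassium channel tetramerization proteins, and Y50D4B.2, related to saccharopine dehydrogenase, averaged 7.53 ± 0.78 and 7.51 ± 1.1 CPM in pals-25(icb98), against 0.705 ± 0.15 and 0.928 ± 0.065 CPM in WT (SD, n = 3).

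The 3 pseudogenes, F15H10.6, C08H9.9 and T26F2.2, were 7.69% of the 39 genes, beside 9.63% of all annotated genes measured. F15H10.6 (chromosome V, 10410240 to 10412149, minus strand) was at 13.8, 13.5 and 13.5 CPM in pals-25(icb98), against 0.0634, 0.0731 and 0.0983 CPM in WT. This was the tightest set of mutant libraries among the 39 genes, with a coefficient of variation of 1.24%. C08H9.9 (chromosome II, 9864646 to 9866399, minus strand) was at 12.9, 12.8 and 14.1 CPM in pals-25(icb98), against 0.183, 0.260 and 0.136 CPM in WT. All of its 1754 bases lie within the span of the chitinase-like gene chil-1 on the same strand, so that reads of the 2 genes were divided by the authors' model and the level of C08H9.9 is uncertain.

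By position, chromosome V held 17 of the 39 genes (43.6%), beside 26.6% of all annotated genes measured, and 29.4% of the 51 genes with a symbol that met the same limits. Chromosomes II and IV held 7 each, III held 4, and I and X held 2 each. With the start of another of the 39 within 10 kb were 14 genes (35.9%), in 4 pairs and 2 runs of 3, whereas 0.870% of all annotated genes measured had such a gene that close. The pairs were Y47G7B.2 with T05A8.1, C06E4.8 with F42C5.3, C53A5.9 with C53A5.11 and ZK813.1 with ZK813.5. Genes next to each other can be copies of one another, and how alike their sequences are was not measured here.

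The run on clone F09C6 (chromosome V, 16878827 to 16885490) holds F09C6.3, F09C6.11 and F09C6.13 within 6664 bases. F09C6.13 (16885044 to 16885490, plus strand) was at 53.6, 60.7 and 51.5 CPM in pals-25(icb98), against 0.169, 0.439 and 0.0983 CPM in WT. F09C6.11 (16881901 to 16882310, minus strand) was at 12.1, 12.2 and 10.8 CPM in pals-25(icb98), against 0.254, 0.0731 and 0.270 CPM in WT. These genes have the same structure, 231 coding bases in 3 exons, but differed 4.36-fold in mutant TPM. F09C6.3 (16878827 to 16880154, minus strand), of 693 coding bases, was at 7.08, 7.44 and 7.97 CPM in pals-25(icb98), against 0.0211, 0.0731 and 0 CPM in WT, where the 0 of replicate 3 allows up to 0.0737 CPM. With 4 WT counts in all it had the widest interval of the 39, a ratio of 242 (94.2 to 890).

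The window of 13 measured genes that reaches 4 genes beyond the run on each side held 10 other genes, 8 of them below 1 CPM on average in WT. These 8 averaged at most 0.103 CPM in WT. Genes that low in WT can enter the edgeR test only through the mutant libraries, so no count of calls is given for the window. F09C6.12, between F09C6.11 and F09C6.13, was at 75.1, 75.5 and 74.0 CPM in pals-25(icb98), against 1.40, 1.05 and 0.835 CPM in WT, and was not among the 39 because its WT mean was over 1 CPM. The thaumatin-like gene thn-4 and the receptor gene srw-23, 3 and 2 places to the left of F09C6.3, stood at 9.65, 7.60 and 11.4 CPM (thn-4) and 8.21, 9.03 and 11.3 CPM (srw-23) in pals-25(icb98), with 1 count each over the WT libraries. The pseudogene srp-9, at the right end of the window, was at 2.26, 1.91 and 1.55 CPM in pals-25(icb98), against 2.08, 0.740 and 2.10 CPM in WT, so that its groups overlapped.

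The other run lies on clone Y6E2A (chromosome V, 15712207 to 15721292). Y6E2A.5 (15716348 to 15718662, minus strand) was at 32.8, 33.0 and 29.8 CPM in pals-25(icb98), against 1.06, 0.731 and 1.13 CPM in WT. Y6E2A.4 (15712207 to 15716779, minus strand) was at 19.9, 20.0 and 21.0 CPM in pals-25(icb98), against 1.08, 0.707 and 0.909 CPM in WT. These 2 genes overlap on the same strand by 432 bases, so that reads in the overlap cannot be given to either with certainty. Y6E2A.7 (15719870 to 15721292, plus strand) was at 15.7, 20.8 and 14.7 CPM in pals-25(icb98), against 0.0423, 0.195 and 0.0737 CPM in WT, with a ratio of 170 (99.0 to 319) beside 32.6 (27.3 to 39.3) for Y6E2A.5 and 22.4 (18.6 to 27.2) for Y6E2A.4.

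**Figure D3:**
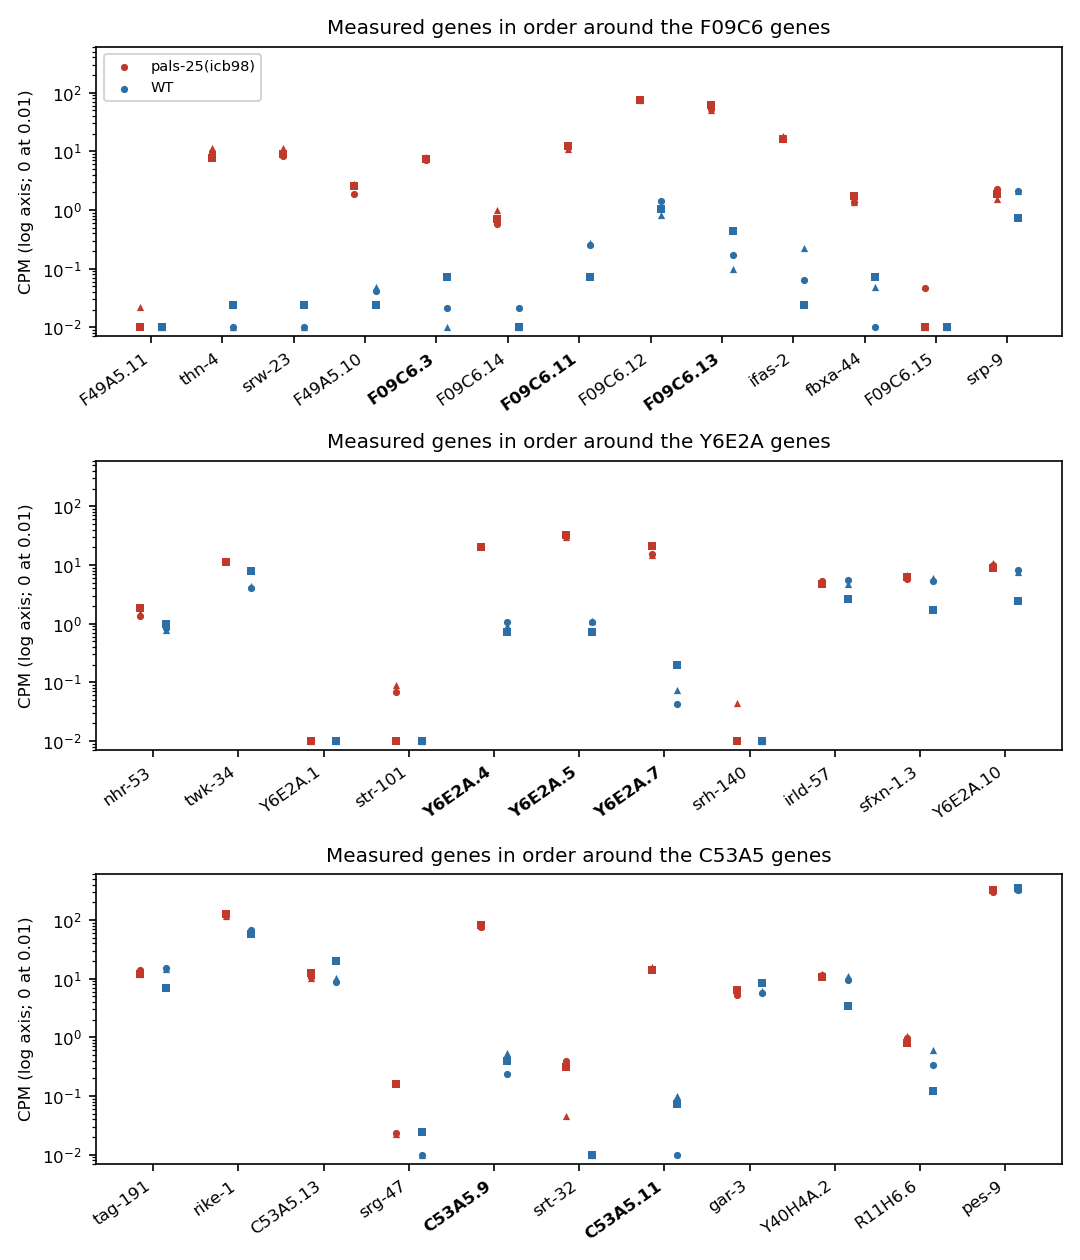
Levels in CPM (log axis, libraries with 0 counts drawn at 0.01) of the measured genes in chromosome order around the F09C6, Y6E2A and C53A5 genes, with pals-25(icb98) in red to the left and WT in blue to the right for each gene and symbol shapes for the replicates; names in bold are among the 39. F09C6.12, between 2 of the 39, stands at 74.0 to 75.5 CPM in pals-25(icb98) and at 0.835 to 1.40 CPM in WT.

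Of the 2 adjacent pairs on the minus strand, Y47G7B.2 and T05A8.1 lie 423 bases apart and C06E4.8 and F42C5.3 lie 221 bases apart. T05A8.1 was at 8.41, 8.87 and 6.75 CPM in pals-25(icb98), against 0.0634, 0.0731 and 0.0246 CPM in WT. C06E4.8 was at 13.6, 14.6 and 13.3 CPM in pals-25(icb98), against 1.01, 0.756 and 0.639 CPM in WT. The ratios were 148 (71.4 to 368) for T05A8.1 beside 56.2 (44.4 to 72.2) for Y47G7B.2, and 17 (14 to 20.9) for C06E4.8 beside 109 (83.4 to 146) for F42C5.3.

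The 39 genes were set against 4 gene lists that the study used. The IPR and ORR lists came from earlier publications. The genes controlled by pals-22 and pals-25 (pals-22/25) and the genes raised in pals-25(jy111) were defined by the study itself. The jy111 allele was made independently and carries the same stop codon, and its libraries were not analysed here. In the pals-25(jy111) list were 34 of the 39 genes (87.2%), which was 20.5% of the 166 measured genes of that list. The pals-22/25 list held 33 of them (84.6%, 8.48% of that list), the ORR list 27 (69.2%, 13.1%) and the IPR list 10 (25.6%, 12.5%). Membership of this kind was shared by the 51 genes with a symbol that met the same limits, with 82.4% for pals-25(jy111), 84.3% for pals-22/25, 72.5% for the ORR and 35.3% for the IPR. Over all annotated genes measured the shares were 0.760%, 1.78%, 0.943% and 0.366% in the same order. These lists overlap one another: all 10 genes in the IPR list were in the other lists too, 16 more genes were in all but the IPR list, 7 were in the pals-22/25 and pals-25(jy111) lists alone, and T05E12.3 was in the ORR and pals-25(jy111) lists alone.

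The median ratio of pals-25(icb98) over WT was 120.001 in the 10 genes of the IPR list, 65.9 in the 17 genes of the ORR list outside the IPR, 16.4 in the 7 genes of the pals-22/25 and pals-25(jy111) lists alone and 9.17 in the 5 genes in no list. The ranges overlapped widely, from 18.2 to 270.5 in the IPR genes, from 10.5 to 284 in the other ORR genes, from 8.07 to 56.2 in the 7 genes of the pals-22/25 and pals-25(jy111) lists alone and from 6.08 to 84.7 in the genes in no list. Median levels per length in the mutant were 24.3, 16.5, 12.2 and 10.8 TPM in the same order of sets, with WT medians of 0.341, 0.579, 0.738 and 1.79 TPM. Among the 12 genes of highest mutant CPM, 10 were in the ORR list and 6 in the IPR list.

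**Figure D4:**
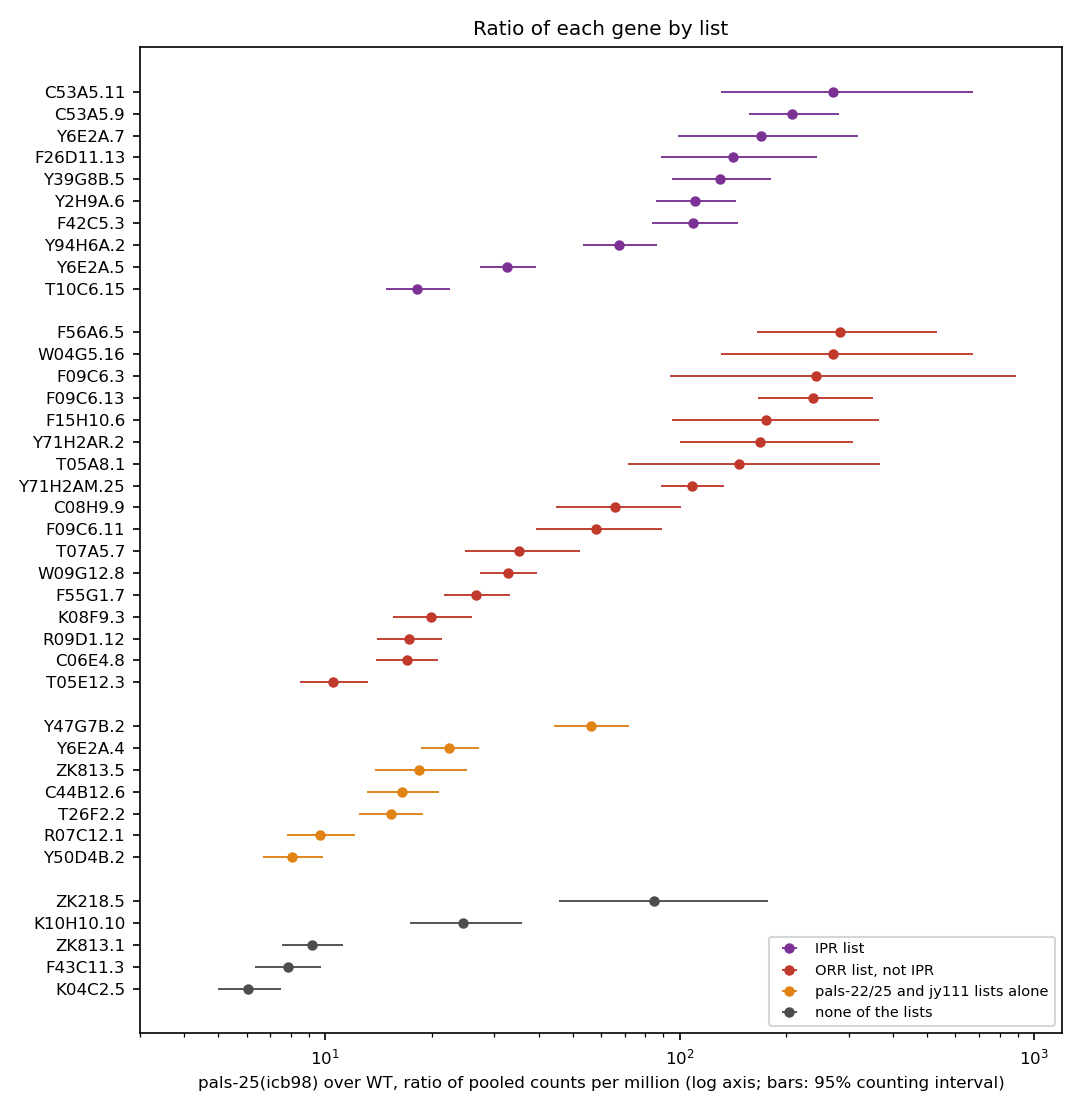
Ratio of pooled CPM in pals-25(icb98) over WT for each of the 39 genes (log axis), with bars for the exact 95% interval, which covers counting error only; colours give the lists that hold the gene. The IPR genes ran from 18.2 to 270.5 and the genes in no list from 6.08 to 84.7.

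The 5 genes in no list were ZK813.1, ZK218.5, K10H10.10, F43C11.3 and K04C2.5, with mean mutant levels between 5.27 and 7.88 CPM, or 7.22 and 19.6 TPM. ZK813.1 (chromosome X, 3446311 to 3446935, plus strand), annotated with a chorion domain, was at 7.15, 5.65 and 10.8 CPM in pals-25(icb98), against 1.04, 0.171 and 1.35 CPM in WT. Its libraries differed strongly within both genotypes. ZK218.5 (chromosome V, 17101129 to 17102109, plus strand), with a ShKT domain of the sort first seen in a sea anemone toxin, was at 7.66, 5.94 and 6.10 CPM in pals-25(icb98), against 0.0846, 0.122 and 0.0246 CPM in WT, and had the highest ratio of the 5, 84.7 (45.8 to 177).

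K10H10.10 (chromosome II, 14507766 to 14510221, plus strand) was at 6.21, 5.9 and 6.71 CPM in pals-25(icb98), against 0.190, 0.439 and 0.147 CPM in WT. F43C11.3 (chromosome II, 2353312 to 2354373, plus strand) was at 6.14, 6.49 and 5.58 CPM in pals-25(icb98), against 0.423, 1.54 and 0.418 CPM in WT. In both, WT replicate 2 was the highest WT library. K04C2.5 (chromosome III, 6890991 to 6891660, minus strand) was at 5.04, 5.35 and 5.42 CPM in pals-25(icb98), against 0.867, 0.707 and 1.03 CPM in WT. Its 670 bases lie within the span of the gene K04C2.2, which is on the opposite strand. K04C2.2 itself was at 144, 157 and 155 CPM in pals-25(icb98), against 183, 173 and 185 CPM in WT. How strand was treated in the counting is not given in the sources used here, so that reads of K04C2.5 and of K04C2.2 cannot be told apart with certainty.

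The ratios depended on single WT libraries in some genes. Leaving out WT replicate 2 moved the ratio of means by more than 1.5 times in 7 of the 39 genes. It became larger in 6 of them: 413 instead of 234.7 for F09C6.13, 295 instead of 165 for Y6E2A.7, 642 instead of 262 for W04G5.16, 709 instead of 239 for F09C6.3, 37.2 instead of 24.2 for K10H10.10 and 14.4 instead of 7.66 for F43C11.3. In F56A6.5, where that library had 0 counts, it became smaller, 185 instead of 278. Leaving out WT replicate 3 moved the ratio that far in 3 genes, each time upwards: 904 instead of 278 for F56A6.5, 316 instead of 163 for Y71H2AR.2 and 401 instead of 257 for C53A5.11. Leaving out WT replicate 1 or any mutant library moved none of the 39 by that much. Without WT replicate 2 the limits took 38 genes, 36 of them among the 39. The genes lost were W09G12.8, Y6E2A.5 and ZK813.1, and those gained were C49C8.2 and C54D10.10.

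The nearest measured gene on each side of each of the 39 genes was then examined. The limits had been applied to these neighbors too, so they are not independent of the choice. Unnamed neighbors that met both limits are among the 39, so the other unnamed neighbors missed at least 1 limit. The neighbors chil-18, chil-1 and ifas-2, which have symbols, met both. Of 78 neighbor places 10 were held by other genes of the 39, and the rest by 65 different genes. Of these 65, 45 had enough counts for the edgeR test. Called higher in pals-25(icb98) were 23, or 35.4% of the 65, beside 7.2% of all 22010 measured genes and 9.8% of the tested ones, and called lower were 2, beside 10.7% of all tested genes. Of the 45 tested neighbors 14 averaged below 1 CPM in WT and 12 of these were called. The lowest of these genes, however, could enter the test only through their mutant libraries. Among the 31 tested neighbors with a WT mean of 1 CPM or more, a limit chosen after seeing the data, 11 were called higher (35.5%), beside 8.42% of all tested genes at that WT level. The median log2 change was 0.27 over these 31 neighbors and -0.01 over all tested genes at that level. The 20 neighbors that could not be tested averaged at most 0.258 CPM in the mutant.

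Neighbors that overlap their gene could share reads with it. At a WT mean of 1 CPM or more 28 neighbors did not overlap their gene, and 11 of these (39.3%) were called higher. Of the 45 tested neighbors 14 were in at least 1 of the 4 lists, and all 14 were called higher. Over all tested list genes outside the 39, 257 of 386 (66.6%) were called higher. Several of the 14 could enter the test only through their mutant libraries, so their calls were partly fixed by the filter. In no list and with a WT mean of 1 CPM or more were 26 neighbors, of which 6 were called higher (23.1%), beside 7.84% of the other tested genes of that kind. That count was 4 when any 1 of the pals-25(icb98) libraries was left out and 9 without WT replicate 2, and the calls over all genes were 682, 823, 724 and 3165 in the same fits.

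The 10 raised neighbors with the largest change had edgeR adjusted p between 3.84e-06 and 0.00672. Apart from eol-1, F09C6.12 and chil-1, they were too low in WT to enter the test without their mutant libraries. For these genes the changes are a description, and the adjusted p adds no support. Chitinase-like genes stand on both sides of R09D1.12: chil-18, 190 bases away, was at 79.9, 69.6 and 58.6 CPM in pals-25(icb98), against 0.211, 0.171 and 0.270 CPM in WT (log2 change 8.31 ± 0.21, SE), and chil-19, on the other side, changed by 1.40 ± 0.17. The gene eol-1, named for olfactory learning and related to a decapping exonuclease, lies 660 bases from the pseudogene T26F2.2 and was at 260.3, 271 and 254 CPM in pals-25(icb98), against 0.951, 1.0 and 1.33 CPM in WT (log2 change 7.91 ± 0.14). T26F2.2 itself averaged 11.7 ± 1.2 CPM in pals-25(icb98) and 0.764 ± 0.092 CPM in WT. The neighbor F15H10.12, 159 bases from F15H10.6, was at 1.81, 2.06 and 1.64 CPM in pals-25(icb98) and had 0 counts in all WT libraries, which makes it at least 79.1-fold higher against a limit of 3 counts over the WT group.

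The other large changes were 7.35 ± 0.47 for ifas-2, 6.18 ± 0.67 for F09C6.14, 6.09 ± 0.18 for F09C6.12 and 5.85 ± 0.34 for F49A5.10, all in or beside the F09C6 run, 5.26 ± 0.40 for T05A8.2 beside T05A8.1, and 4.90 ± 0.66 for ZK285.2 beside T10C6.15, each as log2 change ± SE. For chil-1 it was 6.04 ± 0.27, but C08H9.9 lies within chil-1 on the same strand, so the 2 share reads. F09C6.14 rested on 1 count over the WT libraries, with a ratio of 98.6 and a counting interval of 17.3 to 3933. The 2 neighbors called lower were W09G12.7, by a log2 change of -0.92 ± 0.16, and K04C2.2, by -0.24 ± 0.05.

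**Figure D5:**
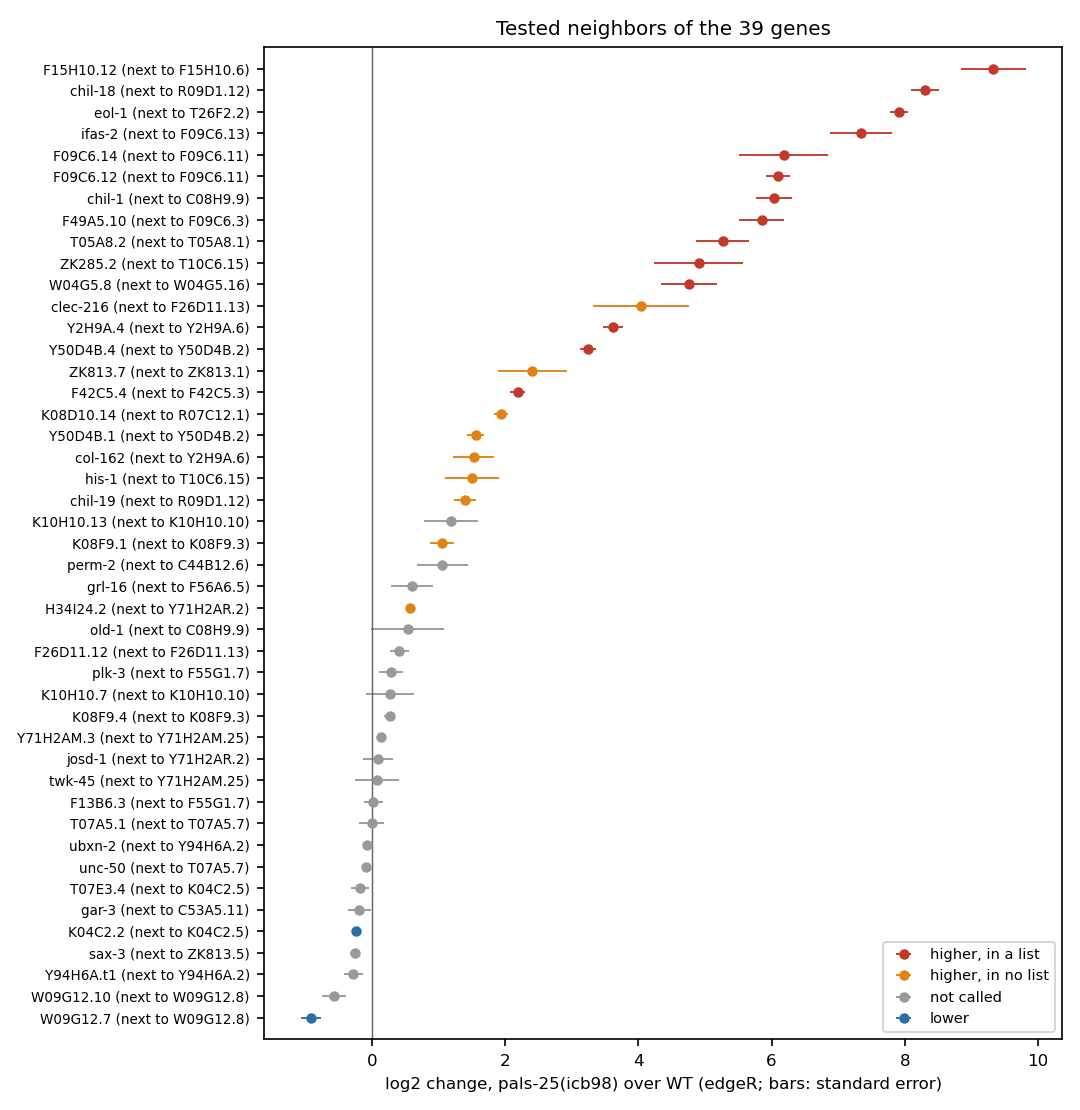
log2 change of pals-25(icb98) over WT, with its standard error, for the 45 tested neighbors of the 39 genes; red neighbors were called higher and are in at least 1 list, orange ones were called higher and are in no list, grey ones were not called and blue ones were called lower. The highest point, F15H10.12, had 0 counts in all WT libraries, so that its fitted change depends on the prior count.

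Beyond the 39, most tested genes of the lists rose too. In the edgeR test 131 of 132 pals-25(jy111) genes, 207 of 284 pals-22/25 genes, 120 of 168 ORR genes and 54 of 67 IPR genes outside the 39 were called higher, with the 9.8% of all tested genes as background. With untested genes included, the lists held 132, 356, 179 and 70 measured genes outside the 39. The background is then 7.2% of all measured genes. List genes near silent in WT could be tested only through their mutant libraries, so these shares are partly fixed by the filter. None of the pals-25(jy111) or IPR genes outside the 39 was called lower, also at an unadjusted p under 0.05 or with DESeq2. The pals-25(jy111) gene that was not called was vps-32.2, at 0.458, 0.701 and 0.378 CPM in pals-25(icb98), against 0.405, 0.244 and 0.266 CPM in WT. The genes called lower were cyts-1, tns-1 and gcy-22 in the ORR list and far-3 in the pals-22/25 list. In every list the smallest p belonged to B0507.8, ddn-1 and pals-37, with log2 changes of 7.77 ± 0.09, 7.53 ± 0.09 and 6.44 ± 0.11 (SE).

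Many unnamed genes of the lists missed the limits. Of 85 unnamed genes measured in the pals-25(jy111) list, 34 were among the 39, 13 lay in the left-out clones, 12 had a WT mean of 1 CPM or more, and 26 were below 1 CPM in WT but below 5 CPM in at least 1 mutant library. Of 35 unnamed IPR genes, 10 were among the 39, 5 lay in those clones, 7 were over the WT limit and 13 under the mutant limit. The genes chil-27 and pals-5, whose promoters serve as reporters of these responses, have symbols and so could not be members. For chil-27, pals-25(icb98) libraries had 35.6, 40.7 and 33.4 CPM, against 0.127, 0.0488 and 0.221 CPM in WT. For pals-5 they had 23.9, 21.2 and 23.1 CPM, against 0.106, 0.195 and 0.0983 CPM in WT.

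The 36 protein-coding genes among the 39 had a median coding length of 880.5 bases, with quartiles of 671 and 1169 bases and a range of 168 to 2178 bases, beside 1209 bases in the protein-coding genes with a symbol that met the same limits and 993 bases over all. The median number of exons was 5 in all 3 sets. A single transcript was listed for 28 of the 39 (71.8%), beside 71% of all annotated genes measured. Where several were listed, 1 transcript usually took most of the mutant counts, such as 90.6% for F55G1.7d, 84.0% for Y50D4B.2c and 71.9% for Y2H9A.6b, but in K08F9.3 the leading transcript had 46.8%. Shares between transcripts of a gene are estimates of the authors' model and less certain than the gene totals.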

How the data were processed

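The authors extracted RNA from whole animals with TRIzol and quantified transcripts with kallisto on the WormBase WS235 transcriptome. Deposited are their estimated counts per transcript, beside lengths and effective lengths. Software versions and how strand was treated are not given in these sources. Counts of 35862 transcripts were summed by sequence name to 22010 genes, of which 99.2% were matched to the Ensembl WBcel235 annotation. A gene counted as named if Ensembl or RefSeq gave a symbol. CPM is the gene total per 1000000 counts of the library, and TPM was computed from deposited counts and effective lengths. Sequences of genes and promoters were not used here.

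The members, lists and tests were chosen with earlier results of these data known. Gene totals were rounded and tested with edgeR 4.0.16 in R 4.3.3 (quasi-likelihood F-test, TMM, filterByExpr at a minimum count of 10, genotype alone in the model), and calls were made at an adjusted p under 0.05 (Benjamini-Hochberg, over 16166 genes). All 39 members passed that filter, but only through the mutant libraries for some, so their own test results are not given. They remain among the 16166 genes of the fit and of its calls. Standard errors were taken as the absolute log2 change divided by the square root of the F statistic. They are approximate, and for genes with few WT counts, such as F09C6.14, they can understate the uncertainty. The study's gene categories were used to describe the members. Its lists, as given for its own overlaps of gene sets, were used to group and count genes. The fold changes and overlap statistics of the study were not used. The labels call the replicates biological but do not say how they were separated, so p-values measure the spread between these libraries.

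Named with each library's value were the 12 members of highest mutant CPM, runs of 3 or more, the top 2 of each category, and members in no list; T05A8.1, C06E4.8 and C53A5.11 were named after their values were seen, for their place beside another member, as were thn-4, srw-23, srp-9, chil-19 and the genes of the lists that went against the rest. Alternatives were DESeq2 1.42.0, RLE scaling, no filter, a replicate block, TPM, other limits and distances, and leaving out each library.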

Additional observations from a re-analysis of the deposited data

How the results depend on the processing

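The number of genes that met the limits was 39, and it lay between 38 and 43 when each library was left out in turn, 40 with TMM-scaled totals, 47 with TPM and 41 when symbols were taken from Ensembl alone, an alternative chosen after seeing the data. It moved to 21 with a WT limit of 0.5 CPM, to 25 with a mutant limit of 10 CPM and to 69 with a mutant limit of 2.5 CPM. With TPM in place of CPM the median level in pals-25(icb98) was 16.3 instead of 13.9, the summed level in pals-25(icb98) was 1794 instead of 835, and the summed level in WT was 27.5 instead of 18.4. Across all genes 1584 were called higher and 1729 lower. Leaving out 1 library gave 682 to 3165 higher and 330 to 2972 lower, with the most calls when WT replicate 2 was left out. Raised neighbors numbered 18 to 29 over the same fits, 29 with DESeq2, and raised neighbors in no list 4 to 13. Raised neighbors with a WT mean of 1 CPM or more numbered 9 to 14, and those of them in no list 4 to 9, over the same fits, and 14 and 9 with DESeq2. The counts of raised list genes outside the 39 stayed within 1.5 times under every alternative run, and so did the number of genes with another of the 39 close by at 5 kb (12) and 20 kb (14).

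Replicate numbers in the labels are shared by the genotypes, but the deviations of same-numbered libraries correlated at 0.0778, 0.247 and 0.129, and pals-25(icb98) replicate 3 correlated best with WT replicate 1, so the numbers were not taken as pairs. With a replicate block 1184 genes were called higher and 1010 lower, and 22 neighbors were called higher, 8 of them in no list; the 4 list counts were 51, 110, 185 and 128 for the IPR, ORR, pals-22/25 and pals-25(jy111) lists. With 3 libraries a group and few WT counts per gene, depth limits the ratios from above: 9 of the 39 genes had 14 or fewer WT counts in all.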
